A study of Mus musculus with 30 samples.

Results

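Loss of Prmt5 can act on both main lineages of T cells, and the question here was which genes it moved differently in CD8 and in CD4 cells of the same spleen. The comparison took all 12 spleen libraries of the 30 libraries in the series. They came from 6 mice, and each mouse gave 1 CD8 and 1 CD4 library. For every gene the log2 ratio of CKO over WT was taken in CD8 cells and in CD4 cells, and the difference between these effects, CD8 minus CD4, is called the interaction. A positive interaction means that the CKO effect in CD8 cells lay above that in CD4 cells, whichever sign each had. The mouse was a block in the fit, so the test set the CD8 minus CD4 differences of 3 CKO mice against those of 3 WT mice.

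The groups were CKO mice (CD4-Cre+ PRMT5fl/fl) and WT mice (labelled wild type), all of the strain C57BL/6, with CD8 and CD4 cells sorted by flow cytometry from each spleen. Ages and the gates beyond the population names are not in the labels. CD4-Cre acts from the thymocyte stage that carries both coreceptors, so CD8 and CD4 cells alike descend from cells in which it was active. No group carried Cre alone, so what Cre itself does and what the loss of Prmt5 does cannot be told apart. The study sequenced poly(A) RNA of sorted thymus and spleen T cell populations in bulk, with 3 mice per genotype in each.

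Prmt5 encodes the main enzyme that places symmetric dimethyl marks on arginines of histones, spliceosome proteins and other substrates. CD8 cells respond to antigen by dividing and turning into killer cells that release granzymes and interferon gamma, under transcription factors such as T-bet. CD4 cells turn into helper, follicular helper and regulatory cells, which carry receptors and factors such as PD-1, CXCR5, Helios and IL-10.

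The 12 libraries held 24729146 to 27192847 counts in genes, and 14958 of the 46095 genes listed passed the filter on low counts. Prmt5 averaged 35.6 ± 6.34 CPM, the usual scaling of counts to library size, in CKO CD8 cells, 65.1 ± 3.17 in WT CD8 cells, 22.3 ± 2.98 in CKO CD4 cells and 43.7 ± 0.542 in WT CD4 cells (SD, n = 3 each). Its effect was -0.87 ± 0.12 (SE) in CD8 cells and -0.97 ± 0.10 in CD4 cells, and the interaction of 0.10 ± 0.10 did not pass (edgeR quasi-likelihood test, adjusted p = 0.68). Cd8a stood at 1100 to 1480 CPM in CD8 libraries and at 2.29 to 5.37 CPM in CD4 libraries. Cd4 stood at 848 to 955 CPM in CD4 libraries and at 1.85 to 3.15 CPM in 5 of the 6 CD8 libraries, while the CD8 library of WT 71 had 13.7 CPM. In CPM summed over each marker list, myeloid and dendritic markers reached 72.6 to 119 in CKO CD8, 48.7 to 70.6 in WT CD8, 217 to 460 in CKO CD4 and 136 to 198 in WT CD4 libraries. NK cell markers reached 384 to 556, 253 to 287, 136 to 168 and 122 to 125 in the same order of groups. At an adjusted p under 0.05, 14 of 17 myeloid and dendritic markers were higher and 0 lower in CKO CD4 cells, against 8.53% higher over all genes. In CKO CD8 cells 3 of 15 were higher and 0 lower, against 9.83% higher over all genes. The part of myeloid and dendritic cells in the results was not tested. In bulk RNA, fewer cells of a type and less RNA per cell cannot be told apart.

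At an adjusted p under 0.05, positive interactions outnumbered negative ones and were larger, while at an unadjusted p under 0.05 both directions were about equal in number. In CD8 cells of CKO mice the T-bet gene Tbx21, the phosphatase gene Ptprj and the fibrinogen-like gene Fgl2 were higher than in WT, while in CD4 cells Zbtb16, Il10 and Maf were lower. The egress factor gene Klf2 and the complement regulator Cd55 were lower in CD8 and higher in CD4 cells of CKO mice. Of the genes tested, 672 (4.49%) had a positive and 411 (2.75%) a negative interaction at an adjusted p under 0.05, 1083 (7.24%) in all. At an unadjusted p under 0.05 there were 2843 (19.0%), 1416 positive and 1427 negative. Within-mouse differences of CKO mice lay wholly above those of WT mice in 1704 genes (11.4%) and wholly below in 1895 (12.7%). The median size of the interaction on the log2 scale was 0.97 among the positive and 0.446 among the negative calls, against 0.183 over all genes tested. Among positive calls 329 exceeded 1 in size, against 41 among negative calls. Without the mouse as a block 271 positive and 112 negative calls were made, and leaving out each mouse in turn gave 443 to 678 and 159 to 416, lowest without CKO 72 (443 and 159) and CKO 68 (446 and 194), with 234 negative calls without WT 70.

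Sorting these genes by the CKO effect in each lineage showed several routes to an interaction. In CD8 cells 9.83% of the genes tested were called higher and 6.22% lower in CKO mice, and in CD4 cells 8.53% higher and 5.63% lower. Of the 672 positive calls, 320 were called higher in CD8 cells alone, 168 were called lower in CD4 cells alone, and 51 were called higher in CD8 and lower in CD4 cells. A further 18 were called higher and 1 lower in both lineages, 1 was called higher in CD4 cells alone, and 113 were called in neither. Of the 411 negative calls, 186 were called lower in CD8 cells alone, 100 higher in CD4 cells alone, 21 higher and 17 lower in both, 8 lower in CD8 and higher in CD4 cells, and 79 in neither. Genes that a lineage's own filter left untested count here as not called in it. They were 30 of the 672 positive and 2 of the 411 negative calls, untested in 1 or both lineages. An effect called in CD8 cells alone is not shown to be absent from CD4 cells, so each difference rests on the interaction test. The CKO effect was called in opposite directions in 59 of 13532 genes tested in both lineages (0.436%), and the 51 of them with a positive interaction numbered 17 without WT 71, 21 without WT 67, 25 without CKO 72, 29 without WT 70 and 79 without CKO 65. The 8 with a negative interaction numbered 13 without CKO 65, 3 without WT 71, and 2 without WT 67, WT 70 or CKO 72.

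**Figure D1:**
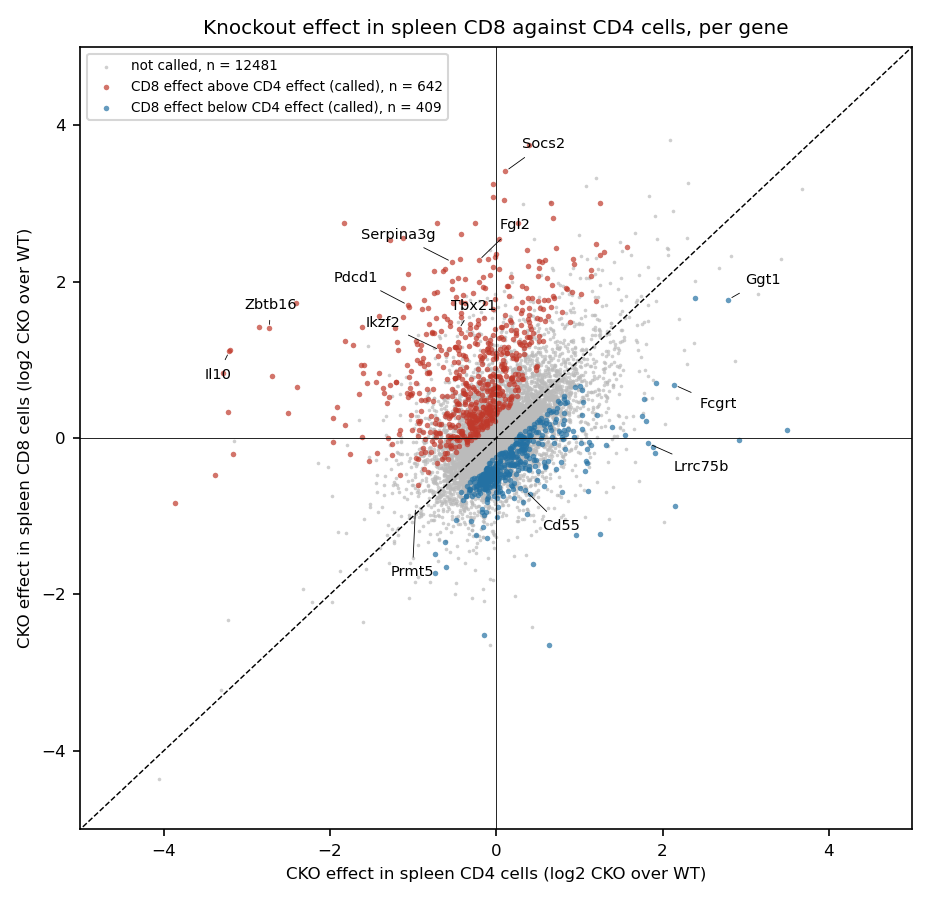
CKO effect in spleen CD8 cells (vertical axis, log2 CKO over WT) against the CKO effect in spleen CD4 cells (horizontal axis, same scale) for the 13532 genes tested in both lineages, with positive interactions in red, negative interactions in blue and all other genes in grey. Genes on the dashed line had equal effects in both lineages. Positive calls reach further from the line, with Zbtb16 and Il10 far to the left of it, and Prmt5 lies close to the line at about equal decreases.

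Positive calls were mostly genes that WT mice expressed more in CD4 cells. Of the 672, 517 (76.9%) had more CPM in CD4 than in CD8 cells of WT mice, against 48.4% of all genes tested, while 95 of the 411 negative calls (23.1%) did. The gap between the lineages was smaller in CKO than in WT mice for 56.8% of the positive and 61.8% of the negative calls, and for 52.3% of all genes tested. The WT gap is itself part of the interaction, so choosing genes by the sign of the interaction favours WT gaps of the opposite sign. These shares also use the same libraries as the calls and are given as a description.

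Tbx21, Zbtb16 and Il10 had been set as marker genes of this comparison with earlier results known, and their values serve as a description. In the values that follow, CKO libraries are in the order of mice 65, 68 and 72 and WT libraries in the order 67, 70 and 71. Tbx21 (chromosome 11, 97098007 to 97115331, GRCm38) encodes T-bet, the factor that directs type 1 helper and cytotoxic programs. It had 77.2, 57.5 and 87.1 CPM in CKO CD8 cells, against 25.4, 33.2 and 26.3 CPM in WT CD8 cells. Its CD4 values were 21.3, 7.57 and 14.2 CPM in CKO, against 18.8, 20.9 and 19.3 CPM in WT. The genotypes were apart in CD8 cells and overlapped in CD4 cells, where CKO 65 lay above all WT libraries. The interaction was 1.90 ± 0.19 (adjusted p = 1.38e-05), with an effect of 1.39 ± 0.15 in CD8 cells and -0.45 ± 0.26 in CD4 cells, the last of which did not pass (adjusted p = 0.289).

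Zbtb16 (chromosome 9, 48651797 to 48836225) encodes PLZF, the factor of innate-like T cells such as natural killer T cells. CD8 cells had 0.788, 2.07 and 1.12 CPM in CKO, against 0.641, 0.428 and 0.426 CPM in WT. For CD4 cells the values were 2.51, 2.42 and 2.71 CPM in CKO, against 16.1, 18.5 and 16.0 CPM in WT. The genotypes did not overlap in either lineage, but the CD8 values rested on few reads, since 10 counts in the shallowest library equal 0.404 CPM. The interaction of 4.07 ± 0.39 (adjusted p = 8.74e-06) came with an effect of 1.40 ± 0.46 in CD8 cells (adjusted p = 0.0622) and -2.73 ± 0.16 in CD4 cells (adjusted p = 1.67e-06).

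Il10 (chromosome 1, 131019845 to 131024970) encodes an inhibitory cytokine made by regulatory and some effector T cells. It had 1.65, 0.662 and 0.519 CPM in CKO CD8 cells, against 0.377, 0.622 and 0.310 CPM in WT CD8 cells. In CD4 cells it had 1.25, 0.872 and 1.01 CPM in CKO, against 10.5, 6.18 and 12.5 CPM in WT. The genotypes overlapped at low levels in CD8 cells and were apart in CD4 cells. The interaction was 4.20 ± 0.52 (adjusted p = 8.33e-05), with a CD4 effect of -3.21 ± 0.29. CKO mice had CD8 minus CD4 differences of 0.38, -0.36 and -0.87 on the log2 CPM scale, against -4.54, -3.16 and -5.03 in WT mice.

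**Figure D2:**
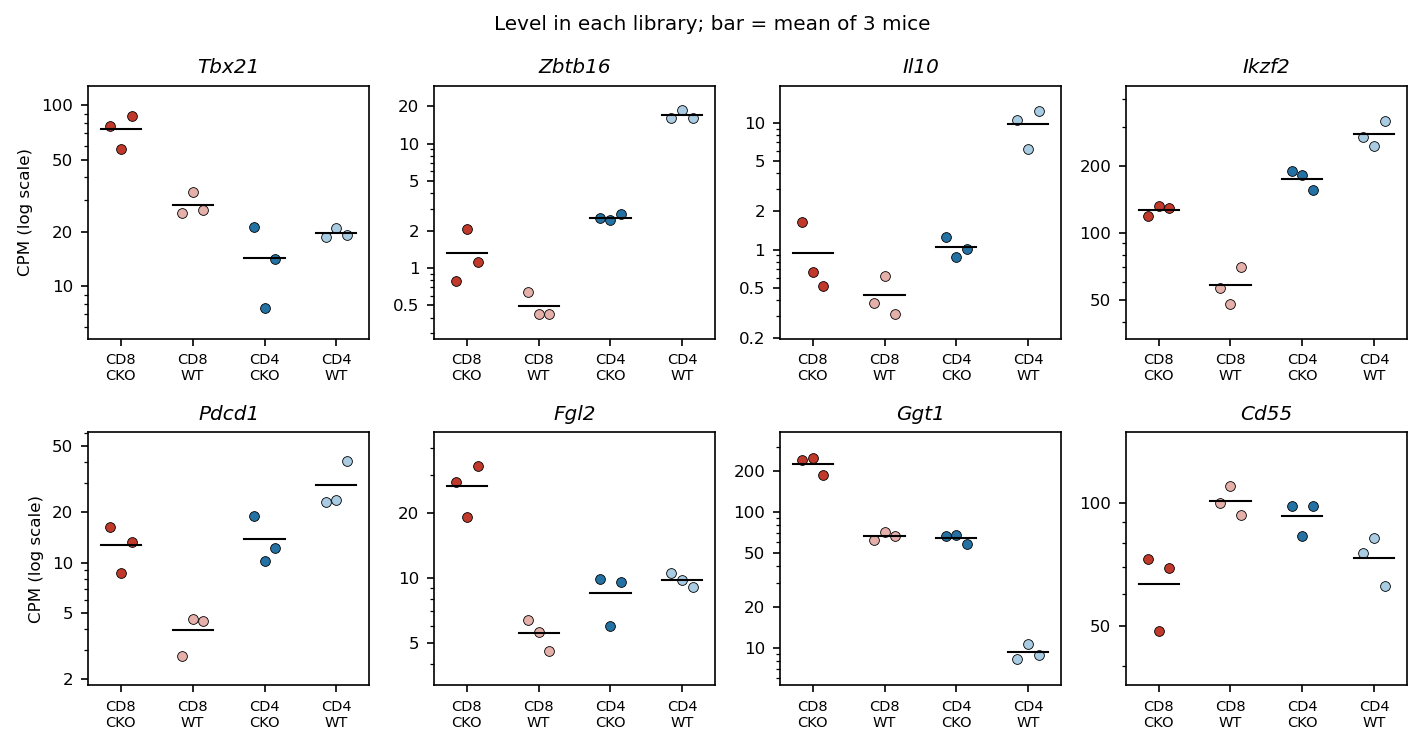
CPM (log axis) of 8 genes in the 12 spleen libraries, with each point a mouse and each bar the mean of 3 mice. Tbx21 and Fgl2 differ by genotype mainly in CD8 cells and Zbtb16 and Il10 mainly in CD4 cells, Ikzf2 and Pdcd1 stand higher in CKO CD8 and lower in CKO CD4 cells, Ggt1 stands higher in CKO cells of both lineages, and Cd55 lower in CKO CD8 and higher in CKO CD4 cells.

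Promoter sequences are shown for 4 genes with per-library values here: Tbx21, the given marker with most reads; Fgl2 and Serpina3f, which are positive calls; and Fcgrt, a negative call. Each runs from 250 bases before to 50 after a transcript start in RefSeq on GRCm38.p6, 5′ to 3′ on the strand of the gene. Capitals mark matches, on either strand, to 4 short motifs: the T-box word TCACACCT, the Runx word TGTGGTT, the AP-1 word TGANTCA and the Krueppel-like word CACCC. The AP-1 word reads the same on both strands, and it can share bases with a CACCC word that follows it, as can adjoining CACCC words.
Tbx21, chr11:97115282-97115581, minus strand: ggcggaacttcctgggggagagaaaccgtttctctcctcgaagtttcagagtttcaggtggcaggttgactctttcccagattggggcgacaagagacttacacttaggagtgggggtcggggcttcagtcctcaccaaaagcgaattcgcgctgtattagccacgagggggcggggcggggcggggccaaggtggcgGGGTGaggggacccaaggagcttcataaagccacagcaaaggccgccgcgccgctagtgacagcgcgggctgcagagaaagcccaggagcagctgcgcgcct
Fgl2, chr5:21372423-21372722, plus strand: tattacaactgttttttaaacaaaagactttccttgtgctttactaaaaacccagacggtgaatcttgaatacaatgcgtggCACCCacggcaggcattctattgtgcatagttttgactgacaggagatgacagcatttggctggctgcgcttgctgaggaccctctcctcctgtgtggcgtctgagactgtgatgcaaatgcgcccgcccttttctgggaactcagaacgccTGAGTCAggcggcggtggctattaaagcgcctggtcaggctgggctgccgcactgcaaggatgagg
Serpina3f, chr12:104214294-104214593, plus strand: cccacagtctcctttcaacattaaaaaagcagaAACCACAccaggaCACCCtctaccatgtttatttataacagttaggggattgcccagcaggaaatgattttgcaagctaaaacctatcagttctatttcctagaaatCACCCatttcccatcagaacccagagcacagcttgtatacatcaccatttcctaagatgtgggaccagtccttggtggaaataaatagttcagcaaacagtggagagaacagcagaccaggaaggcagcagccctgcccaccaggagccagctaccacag
Fcgrt, chr7:45103773-45104072, minus strand: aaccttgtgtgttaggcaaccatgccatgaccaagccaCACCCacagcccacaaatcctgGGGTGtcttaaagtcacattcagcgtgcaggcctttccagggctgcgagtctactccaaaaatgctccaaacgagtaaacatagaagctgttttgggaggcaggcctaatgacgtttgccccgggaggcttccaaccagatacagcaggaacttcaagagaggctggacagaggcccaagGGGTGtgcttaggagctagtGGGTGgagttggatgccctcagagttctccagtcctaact
Tbx21 and Fcgrt hold the CACCC word alone, Fgl2 also holds an AP-1 word, and Serpina3f also holds a Runx word. Promoters were matched for 498 of the 672 positive calls (657 promoters), 261 of the 411 negative calls (367 promoters) and 10181 of the 14958 genes tested (12992 promoters). The AP-1 word stood in 8.68% of promoters of positive calls, 4.63% of those of negative calls and 5.13% of all. For the Runx word these shares were 5.63%, 4.90% and 4.13%, for the T-box word 1.22%, 0.545% and 0.954%, and for the CACCC word 67.7%, 67.6% and 62.8%. A match is a description of these letters and not evidence of binding.

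The 6 ranked positive calls with the smallest p were Ikzf2, Serpina3g, Ptprj, Ptpn13, Fgl2 and Maf. Ikzf2 encodes Helios, an Ikaros family factor known from regulatory T cells. It had 119, 132 and 129 CPM in CKO CD8 cells, against 56.8, 48.0 and 70.1 CPM in WT CD8 cells. Its CD4 values were 189, 182 and 156 CPM in CKO, against 269, 247 and 320 CPM in WT. The genotypes were apart in both lineages and in opposite directions. Its interaction was 1.80 ± 0.09 (adjusted p = 3.03e-08), with 1.12 ± 0.12 in CD8 and -0.67 ± 0.10 in CD4 cells, both called.

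Serpina3g, a serine protease inhibitor gene of activated lymphocytes, had 62.4, 37.7 and 66.0 CPM in CKO CD8 cells, against 11.1, 13.8 and 10 CPM in WT CD8 cells. CD4 cells had 24.2, 16.6 and 23 CPM in CKO, against 33.3, 27.5 and 31.3 CPM in WT. The interaction was 2.76 ± 0.16 (adjusted p = 7.18e-08), and the gene was higher in CD8 and lower in CD4 cells of CKO mice without overlap. Its relative Serpina3f lies 15017 bases away on chromosome 12 and had 4.58, 3.16 and 6.75 CPM in CKO CD8 cells, against 0.905, 1.79 and 0.697 CPM in WT CD8 cells. CD4 values of Serpina3f were 3.01, 2.26 and 3.68 CPM in CKO, against 7.91, 5.16 and 5.62 CPM in WT, with an interaction of 3.15 ± 0.38 (adjusted p = 7.28e-05). Reads of such close relatives can be assigned to either, so their separate values are uncertain.

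Ptprj and Ptpn13, genes of tyrosine phosphatases, differed in how much of the interaction lay in CD4 cells. Ptprj had 22.2, 14.8 and 25 CPM in CKO CD8 cells, against 4.60, 5.37 and 5.23 CPM in WT CD8 cells. Its interaction was 2.40 ± 0.15 (adjusted p = 1.64e-07), and its CD4 effect of -0.37 ± 0.15 did not pass. Ptpn13 had 28.7, 20.3 and 27.6 CPM in CKO CD4 cells, against 38.0, 36.6 and 47.1 CPM in WT CD4 cells. With effects of 1.37 ± 0.17 in CD8 and -0.67 ± 0.14 in CD4 cells, both called, its interaction reached 2.02 ± 0.13 (adjusted p = 2.98e-07).

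Fgl2 encodes a fibrinogen-like protein that regulatory T cells can secrete. It had 28, 19.2 and 33.0 CPM in CKO CD8 cells, against 6.41, 5.60 and 4.57 CPM in WT CD8 cells. CD4 cells had 9.89, 5.99 and 9.57 CPM in CKO, against 10.5, 9.78 and 9.07 CPM in WT. The genotypes were apart in CD8 cells and overlapped in CD4 cells, with an interaction of 2.49 ± 0.16 (adjusted p = 3.05e-07).

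Maf encodes c-Maf, a factor that drives Il10 and follicular helper genes in helper cells. It had 11.7, 8.30 and 11.5 CPM in CKO CD8 cells, against 7.39, 5.80 and 8.40 CPM in WT CD8 cells. CD4 cells had 63.4, 43.0 and 49.8 CPM in CKO, against 107, 82.1 and 130 CPM in WT. The CD8 groups overlapped and the CD4 groups were apart. The interaction was 1.57 ± 0.11 (adjusted p = 1.01e-06), with a CD4 effect of -1.03 ± 0.16.

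Pdcd1, Fasl, Cd22 and Coro2a were further positive calls whose effects were called in opposite directions. Pdcd1 encodes the inhibitory receptor PD-1. It had 16.3, 8.65 and 13.3 CPM in CKO CD8 cells, against 2.75, 4.59 and 4.49 CPM in WT CD8 cells. For CD4 cells the values were 19.1, 10.3 and 12.3 CPM in CKO, against 23.2, 23.6 and 40.5 CPM in WT. Its genotypes did not overlap in either lineage, and its interaction was 2.74 ± 0.20 (adjusted p = 1.01e-06).

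Fasl, which encodes the ligand that triggers death through Fas, had effects of 1.52 ± 0.16 in CD8 and -0.59 ± 0.12 in CD4 cells and an interaction of 2.12 ± 0.19 (adjusted p = 4.58e-06). Coro2a, a coronin gene, had 0.75 ± 0.10 and -0.41 ± 0.10, with an interaction of 1.16 ± 0.09 (adjusted p = 2.26e-06). Cd22, known as an inhibitory receptor of B cells, had 35, 27.9 and 38.3 CPM in CKO CD8 cells, against 10.1, 12.8 and 11.9 CPM in WT CD8 cells. In CD4 cells it had 9.68, 5.67 and 6.67 CPM in CKO, against 14.9, 13 and 20.2 CPM in WT. Its interaction was 2.66 ± 0.20 (adjusted p = 1.37e-06). The defining B cell genes Cd79a and Ms4a1 stood at 0.674 to 4.24 CPM in all 12 libraries, and of 13 B cell markers tested only Cd22 and Pax5 were called, with 1 called without CKO 68 or without the block.

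Several of the largest positive interactions lay in genes with few reads in a lineage. Socs2, a suppressor of cytokine signalling, had 3.30, 3.20 and 5.51 CPM in CKO CD8 cells, against 0.264, 0.506 and 0.348 CPM in WT CD8 cells. CD4 cells of both genotypes had 8.30 to 10.8 CPM, and the interaction was 3.28 ± 0.32 (adjusted p = 9.28e-06). Itga1, the alpha chain of a collagen-binding integrin of tissue-resident cells, had 12.2, 15.2 and 16.6 CPM in CKO CD8 cells, against 2.30, 2.22 and 2.01 CPM in WT CD8 cells. Its CD4 values ran from 0.912 to 2.02 CPM in CKO and from 1.43 to 3.72 CPM in WT, with an interaction of 3.42 ± 0.36 (adjusted p = 1.75e-05).

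Nrbp2 (4.19 ± 0.49), Map6 (3.27 ± 0.47), Npas4 (3.08 ± 0.58), Coro2b (3.05 ± 0.43) and Pak6 (3.57 ± 0.56) were further large interactions. In Nrbp2, Npas4, Coro2b and Pak6 the CD4 effect was called lower, from -1.82 to -3.17. The CD8 effect was called higher in Map6, at 3.75 ± 0.58, and in Nrbp2, at 1.42 ± 0.42. Fam160a1 (3.99 ± 1.16) and Ptpn5 (3.10 ± 0.83) had at most 0.351 CPM in CD8 libraries. Each lost its call without WT 67, CKO 68 or WT 71, and Fam160a1 without WT 70 as well, with an estimate of 2.13 without CKO 68. Both genes also lost their calls without the block, and Ptpn5 with DESeq2 and limma voom as well. Of the 672 positive calls 46 had under 1 CPM in both CD8 groups, and of the 411 negative calls 4 did.

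**Figure D3:**
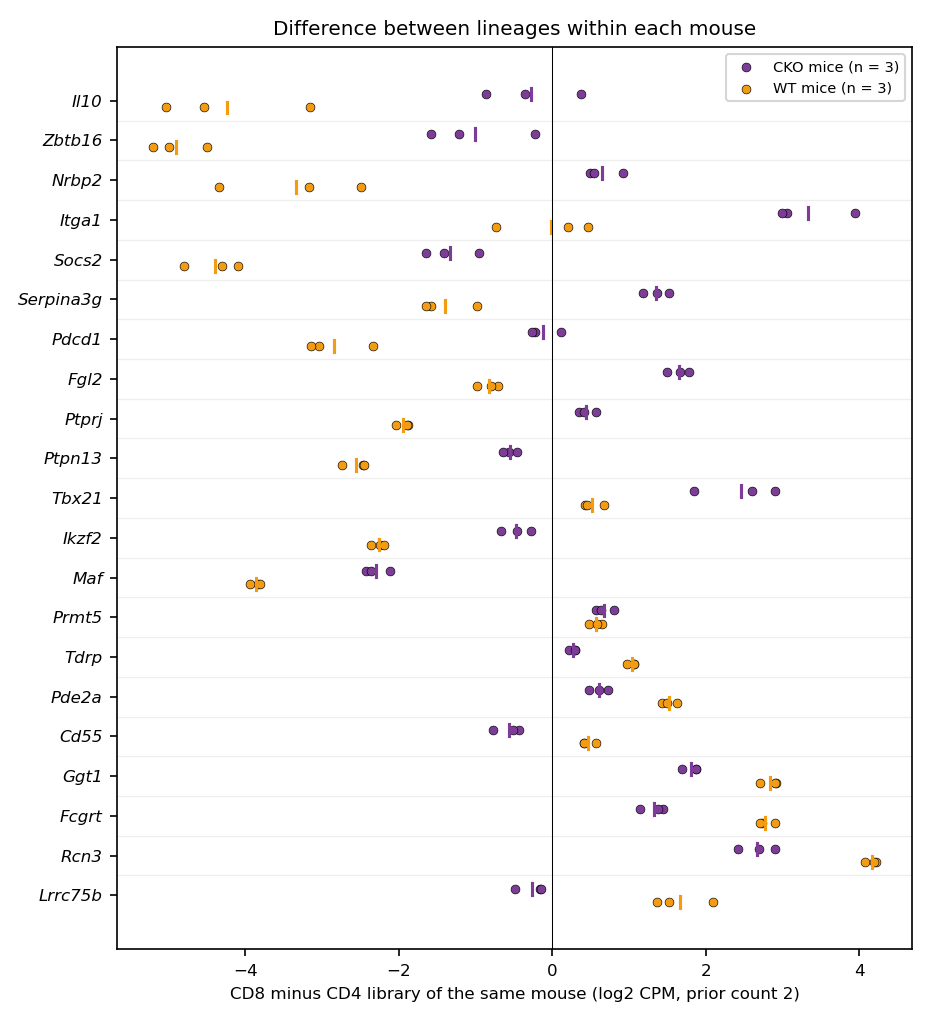
CD8 minus CD4 difference within each mouse (log2 CPM with a prior count of 2) for 21 genes, with 3 CKO mice in purple above 3 WT mice in orange and ticks at the means. CKO mice lie to the right of WT mice for the positive interactions from Il10 to Maf. They lie to the left for the negative interactions from Tdrp to Lrrc75b, while the genotypes overlap for Prmt5. Genes ranked by size or p were taken only where the genotypes were apart in this difference, so their separation here follows from that choice.

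Negative interactions were smaller, and several belonged to genes that were higher in CKO cells of both lineages but more so in CD4 cells. Ggt1 encodes gamma-glutamyltransferase, which cleaves glutathione outside the cell. It had 242, 248 and 187 CPM in CKO CD8 cells, against 62.4, 70.7 and 65.9 CPM in WT CD8 cells. CD4 cells had 66.4, 67.1 and 58.0 CPM in CKO, against 8.18, 10.7 and 8.77 CPM in WT. Both lineages were apart by genotype, with effects of 1.77 ± 0.11 in CD8 and 2.79 ± 0.11 in CD4 cells and an interaction of -1.03 ± 0.09 (adjusted p = 4.58e-06).

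Its neighbour Lrrc75b, 395 bases away on chromosome 10, had 37.0, 29.5 and 27.3 CPM in CKO CD8 cells, against 34.0, 30.9 and 33.4 CPM in WT CD8 cells. CD4 cells had 41.2, 32.7 and 38.0 CPM in CKO, against 11.8, 11.9 and 7.78 CPM in WT. The genotypes were apart in CD4 cells only, and the interaction was -1.92 ± 0.16 (adjusted p = 3.65e-06). Fcgrt, whose product binds IgG and albumin, and Rcn3 formed another pair of neighbours, 670 bases apart on chromosome 7. Fcgrt had 60.7, 49.7 and 46.6 CPM in CKO CD8 cells, against 35.5, 32.1 and 30.8 CPM in WT CD8 cells. Its CD4 values were 22.1, 19.1 and 21.0 CPM in CKO, against 5.27, 4.25 and 4.63 CPM in WT, with no overlap in either lineage. Its interaction was -1.47 ± 0.13 (adjusted p = 4.58e-06), and that of Rcn3, a reticulocalbin gene, was -1.52 ± 0.15 (adjusted p = 1.08e-05). The strand setting of the counting is not given, and reads at the ends of such neighbours may not be told apart.

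Cd55, Tdrp and Pde2a were negative calls at higher levels. Cd55 encodes a cell surface protein that limits complement. It had 73.0, 48.7 and 69.3 CPM in CKO CD8 cells, against 100, 110 and 93.5 CPM in WT CD8 cells. For CD4 cells the values were 98.4, 83.0 and 98.4 CPM in CKO, against 75.4, 82.2 and 62.8 CPM in WT. Neither lineage had overlapping genotypes, though the CD4 groups lay close. Effects of -0.67 ± 0.13 in CD8 and 0.35 ± 0.10 in CD4 cells were both called, with an interaction of -1.03 ± 0.09 (adjusted p = 4.58e-06).

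Pde2a, a cyclic nucleotide phosphodiesterase gene, had 553, 636 and 639 CPM in CKO CD8 cells, against 484, 482 and 524 CPM in WT CD8 cells. CD4 cells had 334, 455 and 420 CPM in CKO, against 157, 179 and 186 CPM in WT. Both lineages were apart, with effects of 0.30 ± 0.08 in CD8 and 1.21 ± 0.11 in CD4 cells and an interaction of -0.91 ± 0.08 (adjusted p = 3.93e-06). Tdrp had effects of -0.29 ± 0.08 in CD8 and 0.47 ± 0.08 in CD4 cells, both called, and an interaction of -0.76 ± 0.07 (adjusted p = 5.02e-06).

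Among the ranked negative calls the largest was Snrnp40 (-2.82 ± 0.48), a gene of the U5 snRNP at 0.896 to 7.64 CPM here. Its CD4 libraries had 3.62, 5.23 and 7.64 CPM in CKO, against 1.38, 1.29 and 1.03 CPM in WT. Further ones were Pcsk1 (-1.81 ± 0.30), Cdr2l (-1.59 ± 0.31), Plekha6 (-1.49 ± 0.30), Slc6a19 (-1.47 ± 0.28), Gpr34 (-1.35 ± 0.26) and Plat (-1.29 ± 0.24). Tnfrsf21 (-1.91 ± 0.46) lost its call without WT 70, without CKO 72 and without the block. Ccr6 (-1.72 ± 0.50) lost its call on leaving out each of the 6 mice in turn, without the block, with DESeq2 and with limma voom.

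Cd8b1, the beta chain of the CD8 coreceptor, had 635 to 804 CPM in CKO and 726 to 852 CPM in WT CD8 libraries. CD4 cells had 15.3, 16.7 and 16.0 CPM in CKO, against 8.44, 9.56 and 9.10 CPM in WT, without overlap, and the interaction was -0.96 ± 0.12 (adjusted p = 8.47e-05). Cd8a in CD4 cells overlapped between genotypes, at 4.66, 3.41 and 5.37 CPM in CKO and 2.29, 4.55 and 2.75 CPM in WT. Its interaction of -0.35 ± 0.22 did not pass (adjusted p = 0.432). Itgae, Klrd1, Rcn3, Fcgrt, Ggt1 and Slc6a19, all more abundant in CD8 cells, were likewise called higher in CKO CD4 cells. These 6 were singled out after their values were seen, and Cst7 and Cd160, also more abundant in CD8 cells, were called lower in CKO CD4 cells. The part of CD8 cells within the CD4 sort in these values was not tested.

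Genes were also read by lists of known roles, and lists share members. Each count of interaction calls below stands beside the shares over all genes, 4.49% positive and 2.75% negative. Counts of CKO effects stand beside 9.83% higher and 6.22% lower in CD8 cells, and 8.53% higher and 5.63% lower in CD4 cells. Each median stands beside all-gene medians of -0.0192 for the interaction, -0.0125 for the CD8 effect and -0.0057 for the CD4 effect. Where positive calls alone are given for a list's interaction, edgeR called 0 members negative, with 0 to 4 at an unadjusted p under 0.05, DESeq2 called 0 and limma voom 0 or 1.

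**Figure D4:**
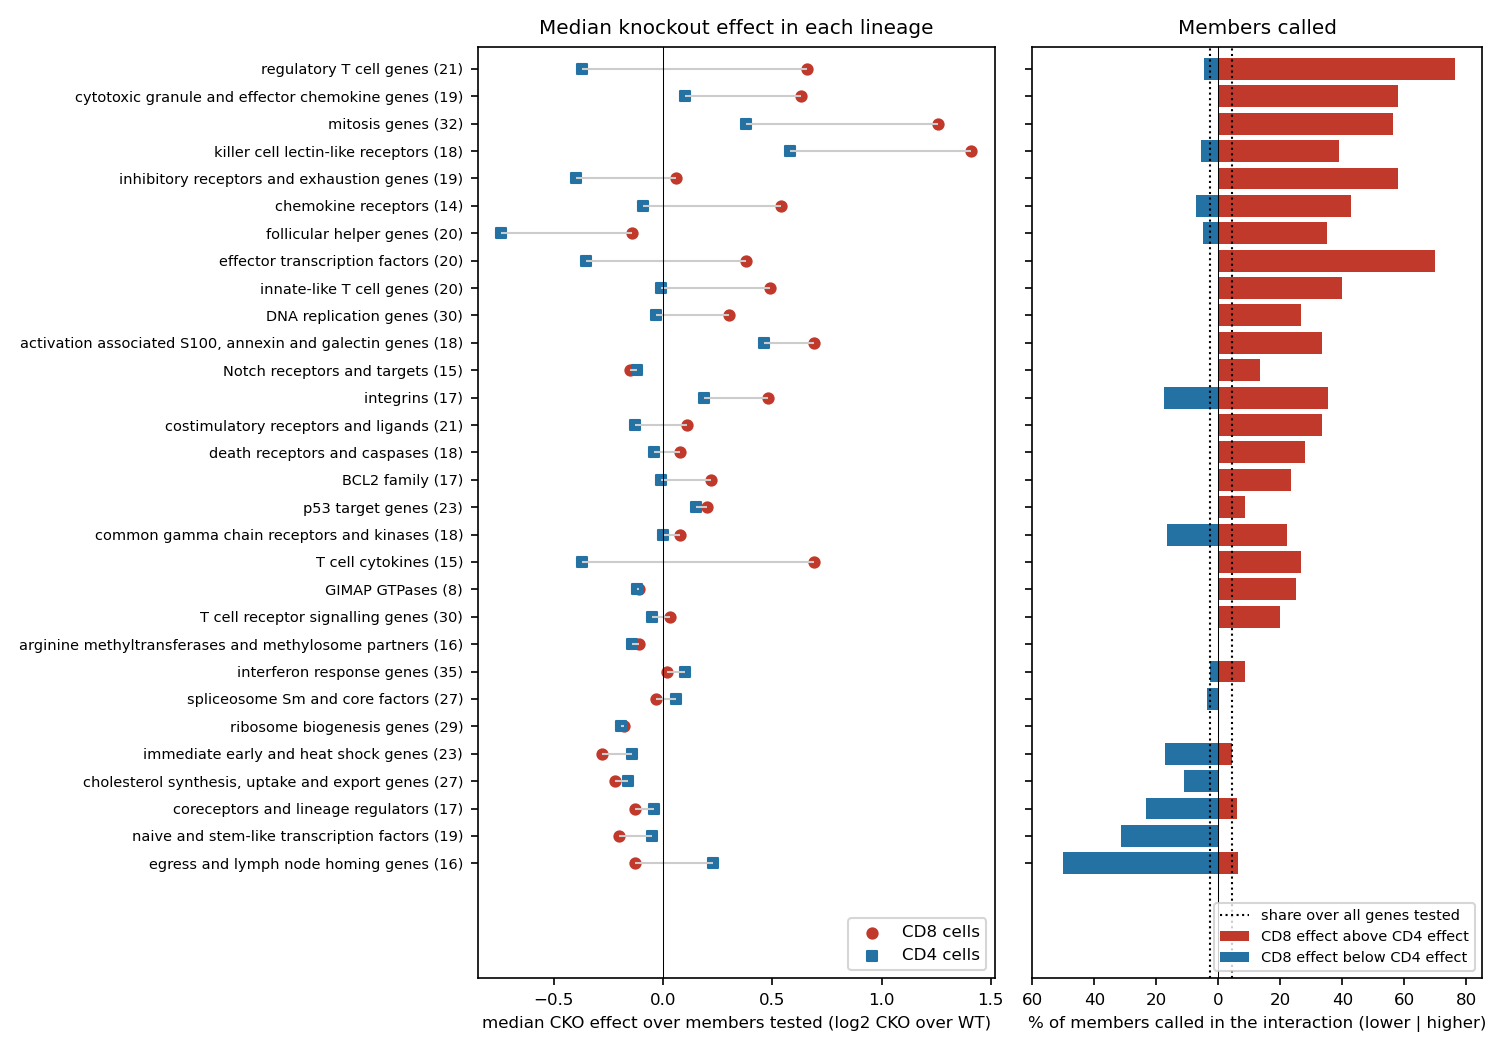
Median CKO effect (log2 CKO over WT) in CD8 cells (red circles) and CD4 cells (blue squares) for 30 gene lists with the number of members tested in brackets, and at right the percent of members called with a positive (right) or negative (left) interaction; dotted lines give the shares over all genes tested. Regulatory T cell genes and effector transcription factors have positive medians in CD8 and negative medians in CD4 cells, and egress and homing genes the reverse.

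Effector transcription factors had a positive estimate in all 20 members tested, and 14 of 20 were called positive. This list also holds Ikzf2, Maf and Rora, known from regulatory, helper and innate-like cells. The median interaction was 0.53, with 0.38 in CD8 and -0.35 in CD4 cells. In CKO mice 9 were called higher in CD8 cells, and 1 higher and 8 lower in CD4 cells. Beside Ikzf2, Maf and Tbx21, Bhlhe40 (1.95 ± 0.19), a helix-loop-helix repressor of activated cells, was called higher in CD8 and lower in CD4 cells. Rora (1.19 ± 0.11) encodes a nuclear receptor of innate-like cells and was called higher in CD8 cells. Without the mouse as a block 7 were called.

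Cytotoxic granule and effector chemokine genes had 11 of 19 members called positive, with a median of 0.91. In CKO mice 14 were called higher in CD8 cells, and 3 higher and 4 lower in CD4 cells. Ifng, which encodes interferon gamma, had 36.2, 38.4 and 50.4 CPM in CKO CD8 cells, against 18.3, 18.4 and 13.1 CPM in WT CD8 cells. In CD4 cells it had 17.8, 9.59 and 10.9 CPM in CKO, against 24.1, 23 and 22 CPM in WT. The genotypes were apart in both lineages and in opposite directions, with an interaction of 2.21 ± 0.23 (adjusted p = 1.70e-05). Cst7, an inhibitor of granule proteases, reached its interaction of 1.26 ± 0.16 with effects of 0.10 ± 0.08 in CD8 and -1.15 ± 0.20 in CD4 cells. Ccl5, an effector chemokine, had 600, 451 and 668 CPM in CKO CD8 cells, against 165, 243 and 136 CPM in WT CD8 cells, and an interaction of 1.25 ± 0.18 that lost its call without the block. Gzma, a granzyme gene called higher in both lineages, had 0.91. It lost its call without CKO 65, WT 71 or CKO 72, without the block and with DESeq2. Without the block 5 members were called. NK cell markers, whose summed levels were higher in CKO cells of both lineages as given above, had 3 of 13 called positive, and 1 without CKO 72 or without the block. Their defining gene Ncr1 stood at 1.54 to 1.84 CPM in CKO CD8 and 0.271 to 0.679 CPM in WT CD8 libraries, and at 2.19 to 2.34 CPM in CKO CD4 and 0.734 to 1.06 CPM in WT CD4 libraries. In CKO mice 7 of 13 NK markers were called higher in CD8 cells, and 7 of 11 higher and 1 lower in CD4 cells, and the part of NK cells in these counts was not tested.

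Killer cell lectin-like receptors had 7 of 18 members called positive and 1 negative, with a median of 0.84. Klrk1, which encodes NKG2D, had 86.5, 69.4 and 120 CPM in CKO CD8 cells, against 19.1, 24.2 and 14.7 CPM in WT CD8 cells, and an interaction of 1.75 ± 0.16 (adjusted p = 8.48e-06). Klrb1c, which encodes NK1.1, was called higher in CD8 and lower in CD4 cells, with 2.64 ± 0.28. Klrd1, which encodes CD94, was the negative call at -0.91 ± 0.12, with 0.11 ± 0.09 in CD8 and 1.03 ± 0.18 in CD4 cells. Positive calls numbered 4 without CKO 65, WT 67, CKO 68 or CKO 72, 4 with DESeq2, 5 with limma voom and 3 without the block. These genes have close relatives whose reads may be shared.

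Regulatory T cell genes had 16 of 21 members called positive and 1 negative, with a median of 1.11. In CKO mice 9 were called higher in CD8 cells, and 3 higher and 11 lower in CD4 cells. Nrp1, which encodes neuropilin-1, had 17.5, 13.6 and 25.9 CPM in CKO CD8 cells, against 7.47, 12.5 and 8.67 CPM in WT CD8 cells. Its CD4 values were 66.8, 45.5 and 63.2 CPM in CKO, against 98.6, 111 and 130 CPM in WT, with an interaction of 1.93 ± 0.18 (adjusted p = 6.71e-06). Il2ra, the alpha chain of the IL-2 receptor, had 1.26 ± 0.13 and was called in both lineages in opposite directions. Itgae, an integrin chain of tissue-resident cells, was the negative call at -1.1 ± 0.12. The defining gene Foxp3 had 6.49, 5.14 and 4.11 CPM in CKO CD8 cells, against 2.04, 1.21 and 3.37 CPM in WT CD8 cells. For CD4 cells the values were 104, 122 and 104 CPM in CKO, against 125, 113 and 112 CPM in WT. Foxp3 was apart by genotype in CD8 cells and overlapped in CD4 cells, and its interaction of 1.34 ± 0.25 was called (adjusted p = 0.0034). The part of Foxp3-expressing cells in the CD8 values of this list was not tested.

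Inhibitory receptors and exhaustion genes had 11 of 19 members called positive, with medians of 0.06 in CD8 and -0.40 in CD4 cells. In CKO mice 7 were called higher and 1 lower in CD8 cells, and 2 higher and 10 lower in CD4 cells. Cd160 (1.67 ± 0.17) and Tigit (1.57 ± 0.17), which encode inhibitory receptors, were called higher in CD8 and lower in CD4 cells, as was Pdcd1. Entpd1, which encodes the ectonucleotidase CD39, had 2.10 ± 0.23 and was called higher in CD8 cells. Without CKO 72 7 members were called, and 6 without the block.

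Follicular helper genes had 7 of 20 members called positive and 1 negative, with a median interaction of 0.57, and 14 were called lower in CKO CD4 cells. Cxcr5, the receptor that guides cells into B cell follicles, had 16.0, 9.62 and 8.43 CPM in CKO CD8 cells, against 12.1, 12.4 and 14.9 CPM in WT CD8 cells. In CD4 cells it had 10, 6.34 and 7.51 CPM in CKO, against 21.5, 23.1 and 36.3 CPM in WT. The genotypes overlapped in CD8 cells and lay apart in CD4 cells, with an interaction of 1.5 ± 0.18 (adjusted p = 5.64e-05). P2rx7, a receptor for extracellular ATP, had 1.24 ± 0.11 with 62.9, 53.8 and 49.1 CPM in CKO CD4 cells, against 97.2, 86.1 and 97.9 CPM in WT CD4 cells.

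Innate-like T cell genes had 8 of 20 called positive. Il12rb2, a chain of the IL-12 receptor, had 14.6, 15.7 and 24.2 CPM in CKO CD8 cells, against 6.15, 5.25 and 4.72 CPM in WT CD8 cells, and an interaction of 2.63 ± 0.25 (adjusted p = 8.74e-06). Gamma delta T cell markers had summed levels of 108 to 140 CPM in CKO CD8 and 43.1 to 47.4 CPM in WT CD8 libraries, and of 35.6 to 42.6 CPM in CKO CD4 and 13.8 to 25.9 CPM in WT CD4 libraries. In CKO mice 4 of 6 tested were called higher in CD8 and 3 of 8 in CD4 cells. Their median interaction was -0.12, with 3 of 9 estimates positive, and the part of such cells in the results was not tested. Of the 9 markers 1, Tcrg-C2, was called positive, with 2.35 ± 0.22, while 2 were called without WT 71, and Tcrg-C1 stood at 0 CPM in all libraries. Tcrg-C1 and Tcrg-C2 are close relatives whose reads may be shared. Trdc rested on few reads, at 0.429 to 0.799 CPM in CKO CD8 and 0 to 0.156 CPM in WT CD8 libraries. In CD4 libraries it had 0 to 0.43 CPM in CKO and 0 to 0.153 CPM in WT. Its CD8 effect of 3.24 ± 0.76 was called higher, and its interaction of 2.48 ± 1.53 did not pass. T cell cytokine genes had 4 of 15 called positive, Ifng and Il10 among them.

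Mitosis genes had 18 of 32 members called positive, with a median of 0.89. In CD8 cells 30 of 32 were called higher in CKO. In CD4 cells edgeR called 0 in either direction at a median of 0.38, with 9 higher at an unadjusted p under 0.05, 1 called higher by DESeq2 and 0 by limma voom. Mki67, a marker of dividing cells, had 211, 146 and 235 CPM in CKO CD8 cells, against 77.6, 65.8 and 63.1 CPM in WT CD8 cells. Its CD4 values were 203, 95.9 and 118 CPM in CKO, against 99.5, 92.7 and 97.2 CPM in WT. CKO 65 stood highest of all CD4 libraries, and the CD4 groups overlapped. The interaction of Mki67 was 1.04 ± 0.16 (adjusted p = 0.000689), and Top2a, a topoisomerase of dividing cells, had 0.96 ± 0.16. Without the mouse as a block 0 members were called, and 7 were called without CKO 72, 9 without CKO 68 and 24 without CKO 65. DNA replication genes had 8 of 30 called positive, with a median of 0.31, with 5 called without CKO 68 or CKO 72 and 2 without the block. Mcm6, a subunit of the replicative helicase, had 0.48 ± 0.08 with a CD4 effect that was called lower.

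The list of egress and lymph node homing genes had 8 of 16 members called negative and 1 positive, with medians of -0.13 in CD8 and 0.23 in CD4 cells. It also holds genes of other roles, such as Igfbp4 and Dapl1, which were both among the negative calls. Klf2, the factor that drives the egress receptor S1pr1, had 453, 449 and 472 CPM in CKO CD8 cells, against 606, 533 and 562 CPM in WT CD8 cells. In CD4 cells it had 405, 387 and 408 CPM in CKO, against 312, 283 and 347 CPM in WT. The groups were apart in both lineages in opposite directions, and the interaction was -0.66 ± 0.08 (adjusted p = 3.85e-05). Igfbp4, a gene of naive T cells, had -0.80 ± 0.08 and was called higher in CKO CD4 cells alone. In the list of naive and stem-like transcription factors 6 of 19 were called negative and 0 positive by edgeR, DESeq2 and limma voom alike. At an unadjusted p under 0.05 edgeR had 8 negative and 0 positive. Actn1, which does not encode a transcription factor, is a member of this list and among the 6 negative calls of edgeR. Lef1, a partner of TCF1, had -0.41 ± 0.07 and was called lower in CKO CD8 cells. The egress count was 5 without CKO 72 and 4 without the block, and the naive count 3 without CKO 68, 2 without CKO 72 and 2 without the block.

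Receptors for chemokines and integrins divided by member. Of 14 chemokine receptors 6 were called positive and 1 negative. Of 17 integrins 6 were called positive and 3 negative. Itga4 (0.66 ± 0.08) and Itgal (0.54 ± 0.08), chains of VLA-4 and LFA-1, were called higher in CKO CD8 cells, and Itga4 was called lower in CKO CD4 cells. Without the block 2 chemokine receptors and 3 integrins were called positive and 1 integrin negative, and the negative chemokine receptor was Ccr6, whose call was lost as above. Among activation-associated S100, annexin and galectin genes 6 of 18 were called positive, 3 without the block. S100a6, a calcium-binding protein gene, had 56.4, 38.0 and 49.8 CPM in CKO CD8 cells, against 9.13, 12.2 and 8.71 CPM in WT CD8 cells, with an interaction of 1.77 ± 0.15 (adjusted p = 4.53e-06). Ahnak, a large scaffold protein gene, had 1.10 ± 0.15.

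Arginine methyltransferase, ribosome biogenesis and spliceosome genes had 0 or 1 call per list, which for lists of this size is near the share of 7.24% over all genes. Of 16 arginine methyltransferases and methylosome partners edgeR called 0 in either direction, with 2 positive and 1 negative at an unadjusted p under 0.05 and 0 called by DESeq2 and limma voom. Of 29 ribosome biogenesis genes edgeR called 0, with 1 negative at an unadjusted p under 0.05, 0 called by DESeq2 and 1 negative by limma voom. Ribosome biogenesis genes had negative medians in both lineages, at -0.18 in CD8 and -0.19 in CD4 cells, where 10 and 8 members were called lower. Of 27 spliceosome genes 1, Lsm4 at -0.39 ± 0.09, was called negative. It lost its call without WT 67, CKO 68 or CKO 72, and without the block. Snrnp40, the U5 snRNP gene given above with a negative call of -2.82 ± 0.48, is not a member of this list. A p that misses the threshold does not show that the lineages responded alike.

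Calls were also made in the remaining lists. T cell receptor signalling genes had 6 of 30 called positive, among them the kinase gene Fyn (0.56 ± 0.07), which was called higher in CD8 and lower in CD4 cells of CKO mice. Costimulatory receptors and ligands had 7 of 21, among them Slamf7 (1.68 ± 0.15), with 69.2, 50.2 and 74.1 CPM in CKO CD8 cells against 26.2, 27.3 and 25.6 CPM in WT CD8 cells. Common gamma chain receptors and kinases had 4 of 18 called positive, with Il2rb (0.84 ± 0.12), the beta chain of the IL-2 receptor, and 3 called negative, with Il7r (-0.38 ± 0.06), the IL-7 receptor gene. Without CKO 68 or CKO 72 3 signalling genes were called. Without the block 2 signalling genes, 3 costimulatory genes and 0 of the negative gamma chain genes were called.

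Death receptors and caspases had 5 of 18 called positive. The BCL2 family had 4 of 17, with Bcl2l1 (0.70 ± 0.14), which encodes the survival protein BCL-XL. Coreceptors and lineage regulators had 1 of 17 called positive and 4 negative, the positive being Zbtb7b (0.76 ± 0.17), which encodes the CD4 lineage factor ThPOK. It had 11.3, 7.68 and 13.4 CPM in CKO CD8 cells, against 4.94, 4.71 and 6.27 CPM in WT CD8 cells, and it lost its call with DESeq2, while limma voom called 2 coreceptor genes positive. Immediate early and heat shock genes had 1 of 23 called positive and 4 negative, and Fos (-0.66 ± 0.08) was called higher in CKO CD4 cells. Cholesterol genes had 3 of 27 called negative. Interferon response genes had 3 of 35 called positive and 1 negative (2 negative with limma voom), p53 target genes 2 of 23 positive, Notch genes 2 of 15 positive and GIMAP GTPases 2 of 8 positive. Most of these small counts moved with a mouse. The BCL2 count was 2 without CKO 65, CKO 68 or WT 71, the negative coreceptor count 2 without CKO 68, WT 70, WT 71 or CKO 72, and the cholesterol count 1 and the negative immediate early count 2 without CKO 72. Interferon positives numbered 1 without WT 67 or CKO 72 and its negative call was lost without WT 70, p53 and Notch counts were 1 without CKO 68, WT 70 or CKO 72. The p53 count was also 1 without CKO 65 and the Notch count without WT 67. The GIMAP count was 0 without CKO 65, WT 71 or CKO 72 and 1 without WT 67 or WT 70. Positive coreceptor calls numbered 3 without WT 71, and the positive immediate early call was lost without WT 67, CKO 68 or WT 70. Without the block the counts were 2 for BCL2, 2 for negative coreceptors, 1 for cholesterol, 1 for negative immediate early genes, 1 for positive interferon genes, 1 for Notch, and 0 for p53, GIMAP, positive coreceptors, positive immediate early genes and negative interferon genes.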

How the data were processed

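Gene counts of 12 spleen libraries were analysed as deposited by the authors, with whole-number counts of reads for 46095 genes and no normalization. Reads were aligned with HISAT2 to GRCm38 and counted with HTSeq, per the submitters' processing notes, with no versions given, and how strand was set in counting is not given in the sources used. Poly(A) libraries were made with a kit that marks strand, per the labels' protocols.

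Genes were kept by edgeR's filterByExpr over the 4 groups and scaled by TMM. The interaction was tested with edgeR's quasi-likelihood test (edgeR 4.0.16, R 4.3.3) with the mouse as a block, lineage, and genotype by lineage, which left 4 residual degrees of freedom. CKO effects within a lineage used its 6 libraries. A call was a Benjamini-Hochberg adjusted p under 0.05 over all genes tested, with no limit on fold. Standard errors are those implied by the test statistic. CPM values use the TMM-scaled totals, and within-mouse log2 differences a prior count of 2. The smallest total makes 10 counts equal 0.404 CPM. The p-values rest on the spread between 3 mice per genotype, with the variance of each gene drawn toward a trend over all genes tested.

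The labels give each mouse number to 1 CD8 and 1 CD4 library, which is where the pairing comes from. Deviations from the group means correlated across genes within a mouse by 0.262 to 0.317 in CKO and by 0.0989 to 0.155 in WT. Between mice the values were -0.187 to 0.0109. Deviations cancel within a group, so positive values within a mouse pull those between mice down, and the latter add no separate support for the pairing. Replicate libraries of a group differed by more than sampling noise, with chi-square values per gene of 6.707 to 25.02.

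Named genes were Prmt5, the coreceptor genes, Tbx21, Zbtb16 and Il10, and, among calls with at least 5 CPM in a group and genotypes apart in the within-mouse difference, the 12 largest and the 6 of smallest p on each side. To these were added the 8 of smallest p with effects called in opposite directions and up to 4 members of smallest p of each list. Some genes this names are not reported here. Unnamed gene models and receptor segments were left out of the ranking, 94 of 961 genes. Foxp3, Ncr1 and other marker genes named beside a result come from the marker lists. The genes and lists were chosen with earlier results of these data known, and the promoters shown were chosen after the values were seen. Promoters are from RefSeq. Alternatives were no block, DESeq2 1.42.0, limma voom (limma 3.58.1) with quality weights, DESeq2 size factors, no filter, at least 5 CPM in 3 libraries, and each mouse left out. The scripts were tested on simulated data. The 18 thymus libraries were not used here.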

Additional observations from a re-analysis of the deposited data

Results flagged for a closer look

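The test of the difference between lineages itself, edgeR's interaction term with the mouse as a block, marked 672 genes with a more positive CKO effect in CD8 than in CD4 cells and 411 genes with a more negative one. Among genes whose CKO effect was called in both lineages in opposite directions, the 8 of smallest p were singled out by that term. Positive interactions were 2.76 for Serpina3g, 2.74 for Pdcd1, 2.66 for Cd22, 2.12 for Fasl, 2.02 for Ptpn13, 1.80 for Ikzf2 and 1.16 for Coro2a, and Cd55 had -1.03.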

How the results depend on the processing

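The labels pair the libraries by mouse. Without the replicate block the interaction gave 271 positive and 112 negative calls, of which 271 and 111 were also called with it. Of 157 named genes 44 lost their call, and the 157 include genes such as Prmt5 and Cd8a that had no call to lose. The blocked and unblocked values are given beside the lists. DESeq2, limma voom, DESeq2 size factors, no filter and the strict filter gave 577 to 848 positive and 334 to 604 negative calls, none further than 1.5 times from 672 and 411. Leaving out each mouse gave 443 to 678 positive and 159 to 416 negative interaction calls, 844 to 1320 higher and 462 to 978 lower genes in CD8 cells, and 706 to 1232 higher and 379 to 912 lower genes in CD4 cells. Among named genes DESeq2 lost the calls of Ccr6, Gzma, Ptpn5 and Zbtb7b, limma voom those of Ccr6 and Ptpn5, size factors that of Tcf7 and the strict filter that of Ccr6, while leaving out a mouse lost 9 to 19. The interaction of Cd4, -0.97 and not called with all mice (adjusted p = 0.369 in edgeR), ran from -1.43 to 0.53 with a mouse left out. Without WT 71, whose CD8 library held 13.7 CPM of Cd4, the Cd4 interaction reversed to 0.53 and was called positive. With all mice and no filter it was called negative, at the same estimate of -0.97. The causes were not tested. The alternative with a sex term was not run, since the 6 mice were of 1 sex by Xist and Ddx3y. Genes under about 0.404 CPM rest on fewer than 10 counts a library. Counts per list and of opposite effects without a mouse or the block were alternatives chosen after seeing the data.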
